A study of Mus musculus with 4 samples.

Results

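The transcripts described here encode the surface proteins by which T cells are recognised and sorted: the CD3 chains Cd3d, Cd3e, Cd3g and Cd247, the coreceptors Cd4, Cd8a and Cd8b1, the pan-T cell glycoprotein Thy1, and Trgv4, a variable segment of the gamma chain of the gamma-delta T cell receptor. These 9 genes were taken by name, and all of the 19 probe sets that the platform annotation assigns to 1 of them alone are shown, out of 18193 genes named in this way on the array. All 19 were bright enough to be tested, 1427802_a_at of Trgv4 only through its KO signal. The samples were splenic naive T cells of mice, wild type (WT) or KO, kept for 3 days under conditions that induce regulatory T cells (Treg cells), with 2 arrays of each genotype. The labels give no strain, age or sex, leave the deleted gene unnamed, and number the mice that each culture came from without saying whether animals were pooled or whether CD4 cells were selected. Foxp3, the defining transcription factor of Treg cells, was measured at signals of 2177 and 2033 on the WT arrays and 947 and 1101 on the KO arrays, and the Cd3 transcripts that define T cells were present on every array.

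The T cell receptor binds antigen through a pair of variable chains, either alpha and beta or gamma and delta, which cannot signal by themselves. The CD3 gamma, delta and epsilon chains and the CD3 zeta chain, encoded by Cd3g, Cd3d, Cd3e and Cd247, assemble with the receptor and carry the tyrosine motifs that the kinase Lck phosphorylates and to which the kinase Zap70 then docks. CD4 binds class II and CD8 class I major histocompatibility molecules, and both bring Lck to the receptor. CD8 is found as a heterodimer of the alpha and beta chains on conventional CD8 T cells and as a homodimer of alpha chains on other lymphocytes, while Treg cells induced from naive CD4 T cells carry CD4.

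The CD3 chain genes lie at 2 places in the genome, and the windows around their start sites are shown because 3 of the 4 chains were called higher in KO cells and 1 was not called. Cd3g and Cd3d lie side by side on mouse chromosome 9, are read in opposite directions and have start sites 1355 bases apart, and Cd3e starts 27825 bases from Cd3d, whereas Cd247 lies on chromosome 1. RefSeq windows of assembly GRCm38.p6, from 250 bases before to 50 bases after the start site, were found for 5 of the 9 members, namely these 4 and Cd8a. Each is written 5′ to 3′ on the strand of its gene. Capitals mark matches, on either strand, to the E box CAGGTG (written CACCTG on the other strand) or to GGAAGT, a core that ETS factors can bind (ACTTCC on the other strand), and no matches overlapped.
Cd3g, chr9:44980382-44980681, minus strand: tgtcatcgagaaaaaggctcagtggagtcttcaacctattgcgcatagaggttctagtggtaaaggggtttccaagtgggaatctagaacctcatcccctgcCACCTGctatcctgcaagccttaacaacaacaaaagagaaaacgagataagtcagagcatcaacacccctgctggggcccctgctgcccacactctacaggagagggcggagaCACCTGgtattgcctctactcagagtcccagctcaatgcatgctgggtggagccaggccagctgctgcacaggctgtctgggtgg
Cd3d, chr9:44981536-44981835, plus strand: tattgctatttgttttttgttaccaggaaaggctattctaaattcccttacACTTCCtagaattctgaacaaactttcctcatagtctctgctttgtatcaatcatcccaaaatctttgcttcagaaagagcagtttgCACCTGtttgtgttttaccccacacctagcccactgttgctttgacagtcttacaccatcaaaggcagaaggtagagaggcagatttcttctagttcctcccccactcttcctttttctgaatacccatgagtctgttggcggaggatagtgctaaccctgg
Cd3e, chr9:45009562-45009861, minus strand: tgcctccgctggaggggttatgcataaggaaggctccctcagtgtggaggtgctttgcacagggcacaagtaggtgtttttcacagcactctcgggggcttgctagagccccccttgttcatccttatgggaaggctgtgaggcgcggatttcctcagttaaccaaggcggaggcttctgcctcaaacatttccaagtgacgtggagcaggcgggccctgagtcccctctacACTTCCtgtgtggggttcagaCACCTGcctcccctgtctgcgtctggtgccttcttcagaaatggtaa
Cd247, chr1:165788431-165788730, plus strand: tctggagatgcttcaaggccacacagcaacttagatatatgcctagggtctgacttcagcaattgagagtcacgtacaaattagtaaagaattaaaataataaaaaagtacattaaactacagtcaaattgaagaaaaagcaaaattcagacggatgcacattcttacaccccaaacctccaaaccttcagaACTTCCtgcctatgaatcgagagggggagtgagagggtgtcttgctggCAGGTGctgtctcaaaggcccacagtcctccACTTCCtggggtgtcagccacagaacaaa
The CAGGTG letters occurred in all 4 windows, with 2 matches in that of Cd3g, and in 20.2% of all 32851 promoter windows of the same length. GGAAGT occurred in those of Cd3d, Cd3e and Cd247 but not of Cd3g, and in 23.8% of all windows. The RUNX core TGTGGT, found in 16.8% of all windows, was in none of the 4, and the Cd8a window (chr6:71373177-71373476, plus strand) held none of the 3 motifs. These matches describe the letters of the windows and do not show that a factor binds there.

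Members that moved all moved up. In KO cells 12 of the 19 probe sets, from 7 of the 9 genes, were called higher, 0 were called lower and 7 were not called, where called means an adjusted p of at most 0.05 in a limma fit of all 27022 probe sets tested. None of the 19 was lower at an unadjusted p below 0.05 either. Across those 27022 probe sets, 7.89% were called higher, 9.17% lower and 17.1% in either direction. The median log2 fold change of the 19 was 0.90, against -0.08 for all probe sets tested. Signals of the groups did not overlap at 16 of the 19, and at 60.2% of all probe sets. The genes were chosen with earlier results of these arrays known, so these shares are a description. Signals are MAS5 intensities on a linear scale. Fold changes are differences in log2(signal + 16), KO minus WT, over 2 arrays per group. The standard error after a fold change (±) is the moderated one of limma. It draws on the spread of the probe set itself and on that of others of like intensity. In such bulk samples a change in the number of cells of a type and a change in RNA per cell cannot be told apart. With so few arrays the exact two-sided permutation p is at least 0.333, and it was 0.333 for every member probe set without overlap.

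**Figure D1:**
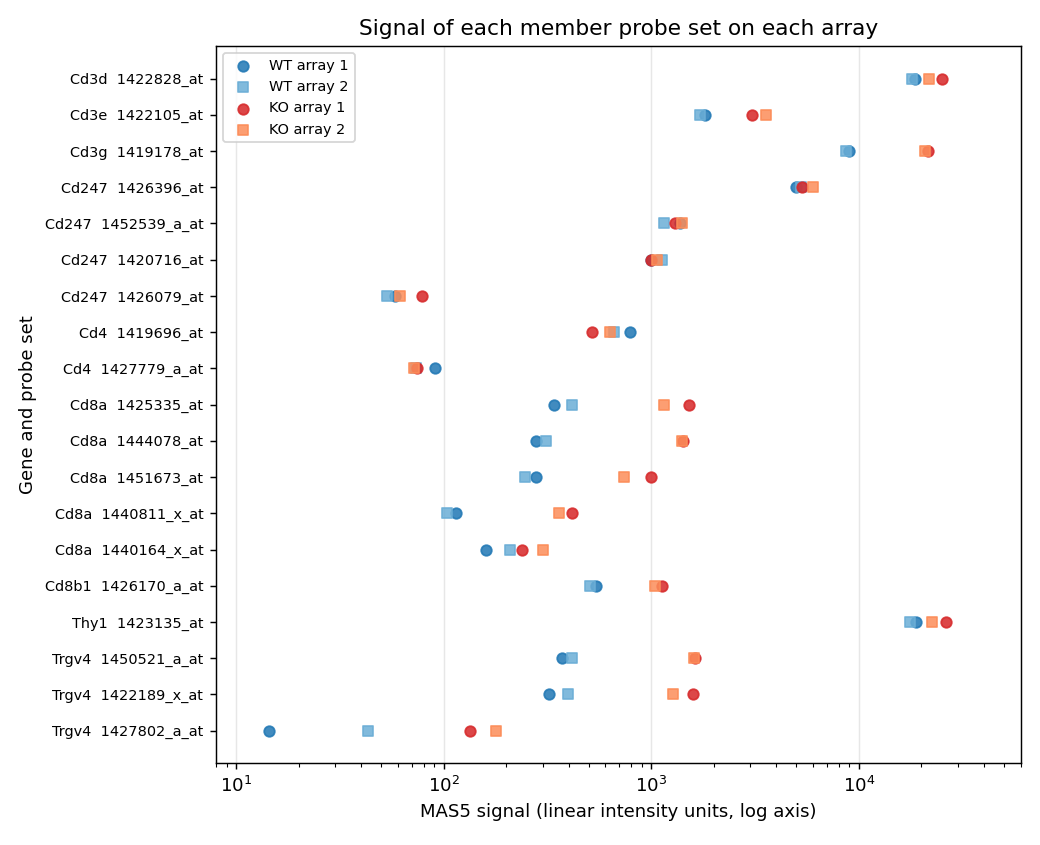
MAS5 signal (linear intensity units on a log axis) of each of the 19 member probe sets on the 4 arrays, WT in blue and KO in red or orange, with circles for array 1 and squares for array 2. KO points stand to the right of WT points for Cd3e, Cd3g, Cd8b1, Trgv4 and Cd8a, and the points mix or lie close together for Cd247 and Cd4. Positions of different probe sets along the axis are not comparable as transcript levels.

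Of the CD3 chains, Cd3g rose most. Cd3g, which encodes the gamma chain, was at signals of 8978 and 8666 on WT arrays 1 and 2 and at 21527 and 20722 on KO arrays 1 and 2. The groups stood far apart and the arrays within each group were close, with means of 8822 ± 221 and 21124 ± 569 (SD, n = 2 per group), a 2.39-fold rise (log2 fold change 1.26 ± 0.08, limma adjusted p = 5.29e-05). Cd3e, which encodes the epsilon chain that pairs with both gamma and delta, was at 1819 and 1722 in WT and 3062 and 3573 in KO cells. It rose 1.86-fold (log2 fold change 0.90 ± 0.12, adjusted p = 0.00163), again with no overlap. Its call was lost when limma used 1 prior variance for all intensities, that is, without an intensity trend (adjusted p = 0.0631).

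Cd3d, which encodes the delta chain, moved less. Its signals were 18632 and 17974 in WT and 25008 and 21778.5 in KO cells, so that both KO arrays were above both WT arrays. This was a 1.28-fold rise (log2 fold change 0.35 ± 0.09, adjusted p = 0.0354). The call was lost without the intensity trend, with each array centred on its median, with no filter on dim probe sets, and without either WT array, with adjusted p-values of 0.0755 to 0.243 in these 5 settings.

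No change was called at any of the 4 probe sets of Cd247, the gene of the zeta chain that carries most of the tyrosine motifs of the receptor. The brightest, 1426396_at, was at 4989 and 5275 in WT and 5295 and 6023 in KO cells, a log2 fold change of 0.14 with a 95% interval from -0.10 to 0.38. Probe set 1452539_a_at was at 1373 and 1150.3 in WT and 1304 and 1407 in KO cells (0.11 ± 0.14), and 1420716_at at 993 and 1121 in WT and 997 and 1061 in KO cells (-0.04 ± 0.14). At both of these the groups overlapped. The dim 1426079_at lay between 53.1 and 61.7 on all but KO array 1, where it was 78.4. The sign of 1420716_at and of 1452539_a_at depended on the setting.

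The probe sets of the CD3 chains changed unequally within the same arrays. Cd3g, Cd3e and Cd3d have 1 probe set each, so a difference between chains and one between probe sets cannot be told apart. The 95% interval of the log2 fold change was 1.07 to 1.45 for Cd3g, 0.62 to 1.17 for Cd3e and 0.14 to 0.56 for Cd3d. The intervals of Cd3g and Cd3e overlapped, as did those of Cd3d and the brightest probe set of Cd247 (-0.10 to 0.38). The log2 ratio of Cd3g to Cd3d signal, set to a mean of 0 in WT, was 0.84 and 0.98 on KO arrays 1 and 2 and -0.00046 and 0.00046 on the WT arrays. That of Cd3g to Cd247 was 1.24 and 0.9999 in KO cells. That of Cd3e to Cd3d was 0.34 and 0.76, the KO arrays differing here more than for the gamma chain. Each of 7 such ratios between members separated the groups, and each had an exact permutation p of 0.333, also after adjustment over the 7, the smallest that 4 arrays allow. Of all single probe sets tested 60.2% separated the groups as well, and the share for ratios of other gene pairs was not computed. Since the members were chosen with earlier results of these arrays known, the ratios are a description only.

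**Figure D2:**
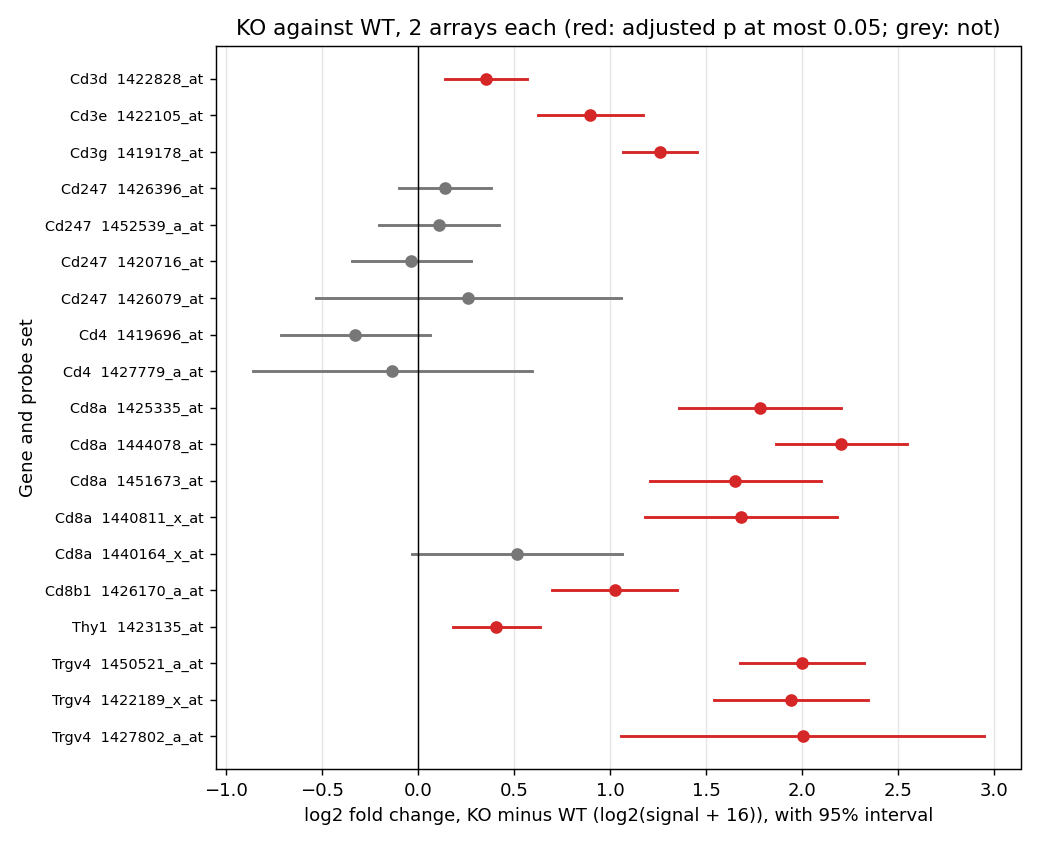
Log2 fold change (KO minus WT, on log2(signal + 16)) of each member probe set with its 95% interval from limma, 2 arrays per group, in red where the adjusted p was at most 0.05 and in grey otherwise. The 12 red points all lie above 0, from 0.35 for Cd3d to 2.20 for Cd8a, and the intervals of Cd4, Cd247 and 1 probe set of Cd8a include 0.

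Cd8a and Cd8b1 rose in KO cells while no change of Cd4 was called. Cd8a, which encodes the alpha chain of CD8, has 5 probe sets, of which 4 were called higher. The brightest, 1425335_at, was at 338 and 417 in WT and 1525 and 1155 in KO cells, a 3.43-fold rise (log2 fold change 1.78 ± 0.18, adjusted p = 0.000465). Probe set 1444078_at rose most, from 279 and 310.4 in WT to 1418 and 1409.8 in KO cells (4.61-fold, 2.20 ± 0.15, adjusted p = 5.65e-05). At 1451673_at the signals were 278 and 247 in WT and 999.6 and 735 in KO cells (3.14-fold). At 1440811_x_at, a probe set marked as open to cross-hybridisation, they were 115 and 104 in WT and 414 and 359.7 in KO cells (3.21-fold). In all 4 the KO arrays stood above the WT arrays. KO array 1 exceeded KO array 2 by a clear margin at 1425335_at and 1451673_at, but the 2 arrays were nearly equal at 1444078_at. The fifth, 1440164_x_at, likewise open to cross-hybridisation, was at 159 and 209 in WT and 238 and 301 in KO cells and was not called (0.51 ± 0.24, 95% interval -0.03 to 1.06, adjusted p = 0.183). Its interval does not reach that of 1444078_at (1.86 to 2.54), so the probe sets of this gene disagree in size, though not in direction.

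Cd8b1, which encodes the beta chain of the CD8 heterodimer, was at 543 and 508 in WT and 1127 and 1041 in KO cells. It rose 2.03-fold (log2 fold change 1.02 ± 0.14, adjusted p = 0.00205). The log2 ratio of Cd8a (1425335_at) to Cd8b1, set to a mean of 0 in WT, was 0.90 and 0.61 on the KO arrays and -0.19 and 0.19 on the WT arrays. The ratio was thus higher on both KO arrays than on either WT array. The log2 fold changes of the 4 called probe sets of Cd8a were above that of Cd8b1, and that of 1440164_x_at (0.51) was below it. Cd8b1 has 1 probe set, so a difference between the chains and one between probe sets cannot be told apart.

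Cd4, the coreceptor gene of helper and most regulatory T cells, was at 786 and 662 in WT and 517 and 631 in KO cells at its brighter probe set, 1419696_at. The KO arrays were below the WT arrays but WT array 2 and KO array 2 lay close to each other, and no change was called (log2 fold change -0.33 ± 0.17, 95% interval -0.72 to 0.06, adjusted p = 0.231). The dimmer 1427779_a_at was at 90.5 and 73.8 in WT and 74.3 and 71.7 in KO cells, and the groups overlapped (-0.14 ± 0.32). The value at 1419696_at was -0.21 without WT array 1 and -0.19 without KO array 1, that at 1427779_a_at was -0.014 without WT array 1 and -0.26 without WT array 2, and none of these was called. The log2 ratio of Cd8a to Cd4 was higher by 2.44 and 1.77 on the KO arrays than on average in WT.

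Thy1, a surface glycoprotein of all mouse T cells, was at 18885 and 17696.5 in WT and 26241 and 22381 in KO cells. It rose 1.33-fold (log2 fold change 0.41 ± 0.10, adjusted p = 0.0255), a size close to that of Cd3d, and with the same order of the 4 arrays. As for Cd3d, the call was lost without the intensity trend, with median centring, with no filter and without either WT array (adjusted p = 0.053 to 0.209 in these 5 settings). Stromal cells also carry Thy1. Of 7 stromal markers 1 was tested, the collagen gene Col1a2, which fell from 767 and 396 in WT to 149 and 155 in KO cells (adjusted p = 0.0049, a call lost without the intensity trend). The summed signal of the list was 554 to 914 in WT and 249.7 to 330.5 in KO cells, and most of it in WT was Col1a2. Of those too dim to be tested, Col1a1 was lower (15.3 and 57.9 in WT, 3.71 and 4.24 in KO cells). Lum was higher (31.8 and 5.47 in WT, 48.8 and 34.9 in KO cells), and the groups overlapped at the others.

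Trgv4 rose at all of its 3 probe sets. At 1450521_a_at the signals were 370.4 and 414 in WT and 1615 and 1610.3 in KO cells, a 3.995-fold rise (log2 fold change 1.998 ± 0.14, adjusted p = 6.95e-05). At 1422189_x_at, which is open to cross-hybridisation between related segments, they were 323 and 398 in WT and 1595 and 1274 in KO cells (3.84-fold, 1.94 ± 0.18, adjusted p = 0.000241). The groups were far apart at both. The dim 1427802_a_at passed the filter, a mean over all 4 arrays, only through its KO signal. Its signals were 14.4 and 43.4 in WT and 133 and 178 in KO cells (2.002 ± 0.41, adjusted p = 0.0129). This last call was lost without the intensity trend (adjusted p = 0.0686) and without KO array 2 (adjusted p = 0.0565), and with a pseudocount of 64 its log2 fold change was 1.25. Of a list of other gamma-delta receptor genes only Trgv1, another gamma variable segment, was named alone by a probe set. It rose from 943 and 952 in WT to 2541 and 1695 in KO cells (log2 fold change 1.12 ± 0.18, adjusted p = 0.00456), a call lost without the intensity trend. Among alpha-beta receptor genes the beta segment Trbv13-2 was tested and not called (0.20 ± 0.19).

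**Figure D3:**
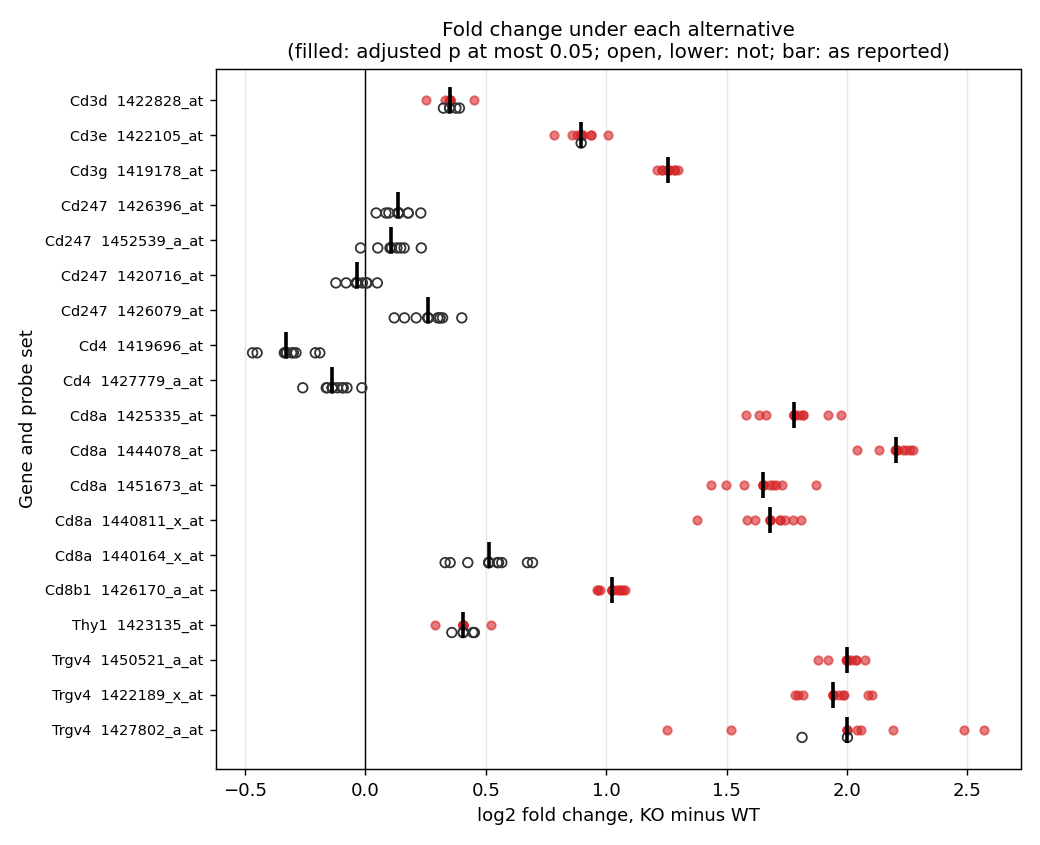
Log2 fold change (KO minus WT) of each member probe set as reported (black bar) and under each alternative setting, filled red where the adjusted p was at most 0.05 and open where it was not. Cd3g, Cd8b1, the 4 called probe sets of Cd8a and the 2 brighter ones of Trgv4 are filled in every setting that kept them, whereas Cd3d and Thy1 have open points at 5 settings each, and the sign changed only at Cd247.

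Markers of other cells moved with the rises of Cd8a, Cd8b1 and Trgv4. Of 11 other CD8 T cell markers 8 were called higher and 0 lower, against 10.5% of 12547 genes called higher and 9.95% lower when 1 probe set per gene was used. Their summed signal was 4585 to 5049 in WT and 43025 to 60944 in KO cells. Most of it in KO cells was Gzma, a granzyme that NK cells share (1659 and 2012 in WT, 43551 and 32626 in KO cells). Without Gzma the sum was 2926 and 3037 in WT and 17393 and 10399 in KO cells. Klrd1 (log2 fold change 3.31 ± 0.21), Nkg7 (2.97 ± 0.20), Klrc1 (3.46 ± 0.33), Cd160 (2.05 ± 0.22) and Gzmk (4.48 ± 0.52) rose. Klrc1 was dim in WT (13.4 and 23.8) and passed the filter, a mean over all 4 arrays, through its KO signal. Eomes, a T-box factor of CD8 T cells and NK cells, was not called (0.39 ± 0.12, adjusted p = 0.0675). Nor were Crtam (-0.24 ± 0.27) and Xcl1 (0.15 ± 0.22), and the groups overlapped at both. With no intensity trend in limma 5 of the 11 were called, the calls of Gzmk, Ccl5 and Klrk1 being lost. The part of these cells or genes in the rises of Cd8a and Cd8b1 was not tested.

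Of 8 NK cell markers with a probe set, 5 were tested and 3 rose, beside 10.5% of all genes called higher. These were Gzma and the signalling adaptors Fcer1g (4.28 ± 0.47) and Tyrobp (3.14 ± 0.68), the last not without the intensity trend. Klre1 (1.14 ± 0.35, limma adjusted p = 0.0582) and Eomes were not called. Without WT array 1 the log2 fold change of Tyrobp was 1.87. The NK receptor Ncr1, which defines the lineage, was too dim to be tested, at 20.4 and 8.18 in WT and 58.5 and 33.6 in KO cells. The summed NK signal was 2956 to 3567 in WT and 36179 to 48827 in KO cells. Most of it in KO cells was Gzma, which is also part of the CD8 sum, and without Gzma the NK signal was 1298 and 1554 in WT and 5275 and 3554 in KO cells. In KO cells this remainder was mostly Fcer1g, Eomes and Tyrobp. Which cells carried these rises was not tested. Beside Trgv4, of 6 gamma-delta T cell markers with a probe set 1 was called, the transcription factor gene Maf, which many helper T cells also express (261 and 386 in WT, 5092 and 5746 in KO cells). This count was near the share over all genes. The scavenger receptor gene Cd163l1 (1.03 ± 0.36) and the kinase gene Blk (0.92 ± 0.40) were not called, nor were 5830411N06Rik (0.41 ± 0.34), Sox13 (0.20 ± 0.32) and Zbtb16 (-0.21 ± 0.44). Leaving out 1 array moved Blk in both directions, from 0.43 without WT array 1 and 0.51 without KO array 1 to 1.33 without KO array 2 and 1.42 without WT array 2, and only the last was called (adjusted p = 0.0424). The summed signal of this list was 594 to 753 in WT and 5666 to 6263 in KO cells, and in KO cells nearly all of it was Maf. The part of such cells in the rise of Trgv4 was not tested.

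Of the remaining lists, 8 of 9 mast cell markers rose, with summed signals of 781 to 982 in WT and 8837 to 12371 in KO cells, and Kit was not called (0.32 ± 0.16). Most of the WT sum was Kit (616 and 713). Most of the called markers were dim in WT, such as Cpa3 (22.3 and 21.4) and Fcer1a (29.4 and 30.3). The filter took the mean over all 4 arrays, so markers this dim in WT entered the test through their KO signal. Of all genes 10.5% were called higher, and 7 of these markers were called without KO array 1 and 7 with no intensity trend. 4 of 9 tested macrophage and dendritic cell markers rose, namely Adgre1, Lyz2, Cd14 and Cd68, with sums of 654 to 1044 in WT and 1740 to 2033 in KO cells. The other 5 were not called, with log2 fold changes of 0.70 for Itgax, 0.06 for Flt3, -0.03 for Zbtb46, -0.11 for Csf1r and -0.58 for Fcgr1. The calls of Adgre1, Cd14 and Cd68 were lost without the intensity trend and that of Cd68 also without KO array 1, and the log2 fold change of Cd14 was 2.11 without WT array 1 in place of 3.37. Of 6 tested B cell markers 0 were called by limma (2 had an unadjusted p below 0.05, both lower), and their sums overlapped between the groups (662 to 1839 in WT, 873 to 1268 in KO cells). Without WT array 1, 2 of them were called lower, and 1 was without KO array 1, with median centring, with the replicate block and without probe sets ending in _x_at or _s_at. No marker on these lists was listed at a signal of 0, and values of dim MAS5 probe sets cannot be read as absence or presence.

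**Figure D4:**
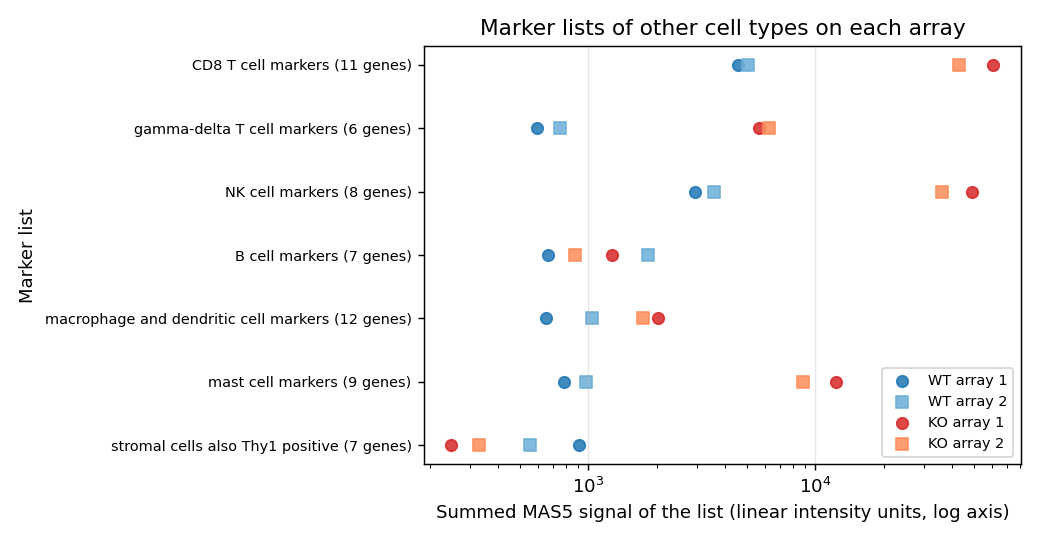
Summed MAS5 signal (linear intensity units on a log axis) of each marker list on each array, 1 probe set per gene, with the number of genes that have a probe set in brackets; members are left out. KO arrays exceed WT arrays for CD8 T cell, gamma-delta T cell, NK cell, mast cell and macrophage and dendritic cell markers, the sums for B cell markers overlap, and those of stromal cells, mostly Col1a2 in WT, are lower in KO.

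Of 32 tested genes of proximal receptor signalling, which act just below the receptor, 3 were called higher, 11 lower and 18 not, with a median log2 fold change of -0.17. Among all 12547 genes 10.5% were called higher and 9.95% lower, so the count of rises on this list was near the share over all genes. Sit1, an adaptor that dampens receptor signals, fell from 2037 and 1911 in WT to 792 and 800.3 in KO cells (log2 fold change -1.29 ± 0.12, adjusted p = 0.00031). Cd5, an inhibitory receptor whose level follows receptor signal strength (-0.82 ± 0.09), Dgkz, a kinase that removes diacylglycerol (-0.79 ± 0.10), and Txk, a Tec kinase (-0.83 ± 0.12), fell as well. The adaptor gene Grb2 rose from 1658 and 1752 in WT to 3666 and 3713 in KO cells (1.11 ± 0.11, adjusted p = 0.000319), and Themis, which acts in thymic selection, rose too (0.84 ± 0.12). Among genes picked after their values were seen, because they act on the CD3 chains or directly downstream of them, Zap70 rose (0.63 ± 0.12), the kinase Fyn fell (-0.70 ± 0.12), and Lat, the scaffold that Zap70 phosphorylates, was not called (0.15 ± 0.09). Without the intensity trend 1 member was called higher and 1 lower, Grb2 and Sit1. Leaving out WT array 1 or WT array 2 gave 6 and 7 calls lower.

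Of 15 tested factors of the CD4 and CD8 lineages 4 rose and 4 fell, with a median log2 fold change of -0.10, beside 10.5% and 9.95% of all genes. Runx3, which represses Cd4 and maintains the CD8 lineage, rose from 3751 and 4535 in WT to 6907 and 6622 in KO cells (0.71 ± 0.11, adjusted p = 0.00411). Zbtb7b, which encodes ThPOK, the factor that commits cells to the CD4 lineage and represses Cd8 genes, rose from 269 and 233 to 394 and 456 (0.72 ± 0.19, adjusted p = 0.0358), a call lost with no filter, without the intensity trend and without any 1 array. Tbx21 (1.33 ± 0.19) and Satb1 (0.67 ± 0.10) rose. Lef1 (-1.18 ± 0.09), Bcl11b (-0.62 ± 0.09) and Ikzf1 (-0.52 ± 0.09) fell, and so did Tox (-0.85 ± 0.21), whose call was lost with no filter and without KO array 1 or either WT array. Gata3, which supports CD4 lineage choice, was not called (-0.36 ± 0.13, adjusted p = 0.0962). Lef1 alone remained called when the trend was left out, and without WT array 2 the calls lower were 2. Zbtb7b, Tox and Gata3 were named after their values were seen.

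**Figure D5:**
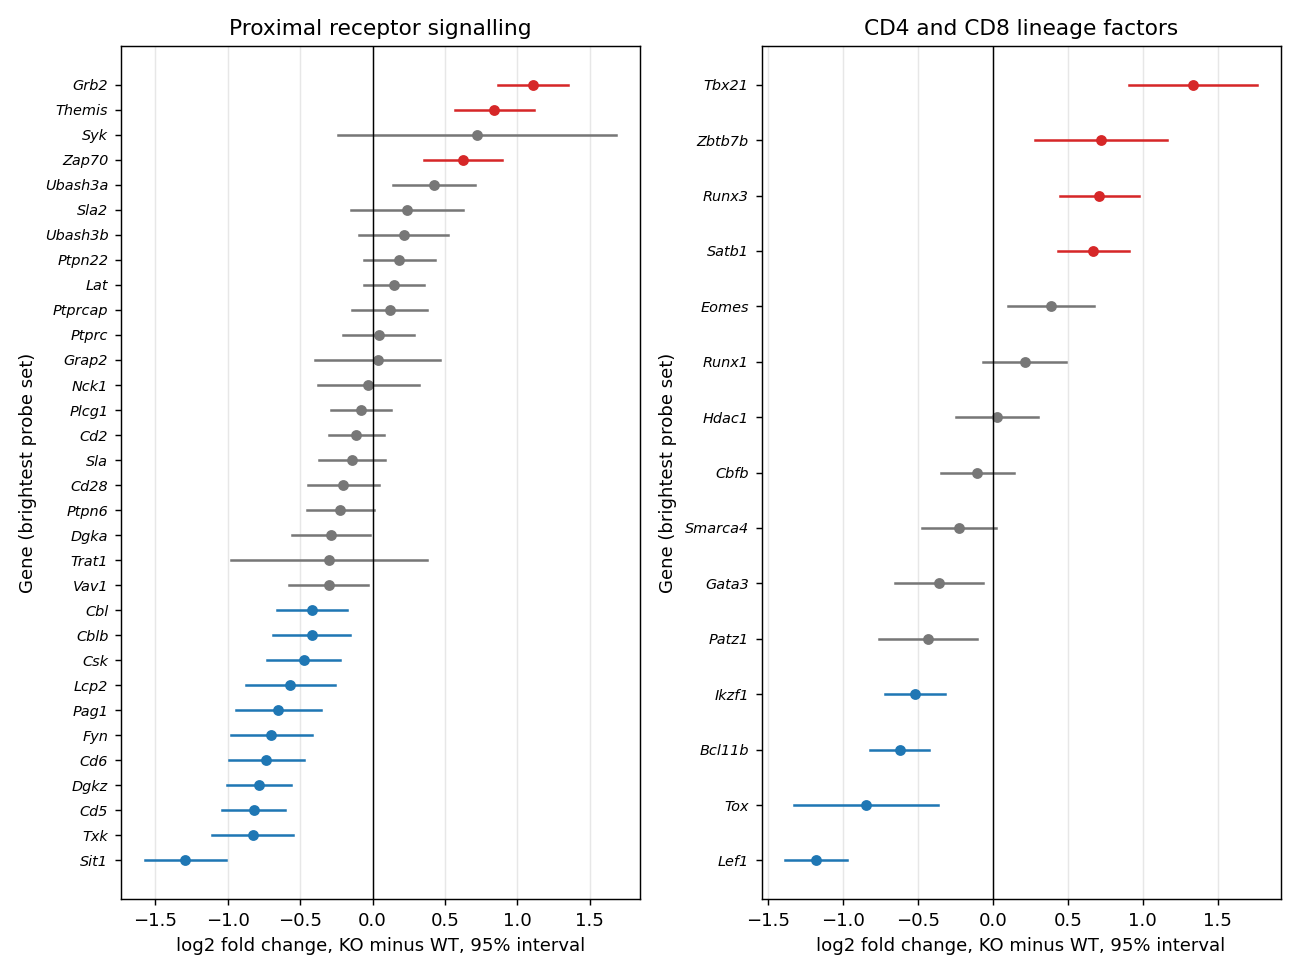
Log2 fold change (KO minus WT) with 95% interval from limma for the tested genes of 2 lists, 1 probe set per gene, in red where called higher, blue where called lower and grey where not called. Falls outnumber rises on the signalling list, 11 to 3, and the lineage list has 4 of each.

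Genes with the most similar course over the 4 arrays were sought for both coreceptors among 12547 genes. For Cd4 they were Ppp1r8 and Abhd17c, at Euclidean distances of 0.04 and 0.05 in log2 units, and neither was called (-0.34 ± 0.15 and -0.31 ± 0.15). For Cd8a (1425335_at) they were the lysozyme gene Lyz2 and the synaptic vesicle gene Syngr1, at distances of 0.14 and 0.15 and log2 fold changes of 1.87 ± 0.33 and 1.67 ± 0.26. With 4 arrays many genes can lie this close, and the distances are a description only.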

How the data were processed

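The deposited table holds 1 column of linear intensity values per array, and the submitters' processing notes name MAS5; its version and settings are not given in the sources used here. Per the labels' protocols, 6 micrograms of total RNA gave biotin-labelled cRNA. With 2% of probe sets left out at each end, each array has the same mean of 500.003 to 500.004, and array medians are 56.5 to 62.6. Array number alone limits precision, and the labels number the mice of each array but do not say how the cultures were set up, so p-values rest on the spread among these arrays, part of which may be technical.

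Of 45101 probe sets, 64 controls were left out; the platform annotation names 1 gene for 34945 of the others, several for 932 and none for 9160. All 9 members kept their symbols in the RefSeq gene table. On log2(signal + 16), the dimmest 40% by mean were left out, and 27022 probe sets were fitted in limma 3.58.1 (R 4.3.3) with an intensity trend and Benjamini-Hochberg adjustment (threshold 0.05, 2 residual and 6.41 prior degrees of freedom); the fit was tested on simulated data. Lists used each gene's brightest probe set.

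Named were all members, up to 6 genes per list with the smallest p, and the 2 nearest profiles of Cd4 and Cd8a. Also named were genes said to be picked later. To these belong Foxp3, Kit, Ncr1, Ccl5, Klrk1, Crtam and Xcl1, named after their values were seen. Members and lists were chosen with earlier results of these data known. Alternatives were pseudocounts of 1 and 64, no filter or 60%, quantile normalization, median centring, no trend, a replicate block, no probe sets ending in _x_at or _s_at, and each array left out.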

Additional observations from a re-analysis of the deposited data

Results flagged for a closer look

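One probe set, 1422188_s_at, names both Trgv4 and Trgv2 and so was outside the comparisons by gene, yet it carried a signal above the WT level. It was at 948 and 930.1 in WT and 4657 and 3233 in KO cells, a 4.08-fold rise (log2 fold change 2.03 ± 0.17, limma adjusted p = 0.000157) close to that of the probe sets naming Trgv4 alone. Signals of the 2 segments cannot be told apart here.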

How the results depend on the processing

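Across the alternatives the number of member probe sets called higher was 8 (no intensity trend) to 12, and 0 were called lower by limma in any; leaving out 1 array gave 10 to 12. The replicate block left it at 12, with 5382 of all probe sets called against 4608. The numbers pair no samples by the labels, and deviations of the arrays numbered 1 correlated at r = 0.01. With no intensity trend the calls were 1183 in all, 1 signalling gene higher and 1 lower, and 0 lineage factors higher and 1 lower. Leaving out 1 array gave 2786 to 4387 calls in all, 6 to 10 signalling genes lower (3 higher each time), and 2 to 4 lineage factors lower (3 higher each time); a lone array was assumed to vary like the other group. The sign turned only at Cd247, where no change was called: 1420716_at was at 0.0047 with median centring and ranged from -0.122 to 0.0502 when 1 array was left out, and 1452539_a_at from -0.0193 to 0.233. The filter of 60% left 16 member probe sets. The causes were not tested. Signal over background is unknown for dim probe sets.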
